A study of Mus musculus with 101 samples.

Results

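Prdm1, Prdm14, Tfap2c, Kit, Cxcr4, Dppa2, Dppa4 and Ifitm3 take part in how mouse germ cells are specified, survive, migrate and keep an early embryonic gene program. They were chosen by name for these roles, and all 8 are among the 15423 genes of the expression table. RNA was sequenced from germ cells sorted by EGFP from the gonads of single E13.5 mouse embryos of the OG2 strain, 48 females and 53 males of generations F1, F2 and F3. Pregnant F0 dams had been given sesame oil (vehicle) or benzo[a]pyrene (BaP), a combustion product whose metabolites bind DNA, by mouth, the daily dose per kg being 0.033 mg, 0.2 mg or 2 mg. Per the study's methods, dosing began at E6.5 and ended at E11.5 for F1 but at E15.5 for F2 and F3, so generation and dosing window cannot be told apart. F1 embryos were themselves in the treated dam, while F2 and F3 embryos descend from it. The question of the series is whether such exposure changes the germ cell transcriptome in either sex and in later generations. There were 5 vehicle females and 5 vehicle males of F1, while the F2 and F3 vehicle groups numbered 6 embryos apiece, and exposed groups held 2 to 8 embryos. In OG2 mice EGFP is driven by Pou5f1 regulatory sequence, so a cell that has lost Pou5f1 activity can escape the sort. Several embryos share the number before the point in their codes, taken here as the dam, though the labels do not say so. The labels also do not say from which F0 dam an F2 or F3 embryo descends.

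Germ cell fate is set in the early embryo when BMP signals switch on Prdm1 and Prdm14, which together with Tfap2c silence the somatic program and restore pluripotency genes. The new germ cells then travel to the gonad, guided by the chemokine Cxcl12 through its receptor Cxcr4 and kept alive and moving by Kit ligand through the receptor tyrosine kinase Kit. In the fetal gonad female germ cells enter meiosis while male germ cells stop dividing, and the early germ cell genes are switched off during that change.

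Values are read counts normalized for library size by the authors. In all but 2 embryos the reads behind them could be recovered. Summed over the genes of the expression table, they ran from 5004382 to 87240533 a library, with a median of 7789673. These sums are not the uniquely mapped reads that the paper reports for its libraries. Over all embryos with recovered reads Cxcr4 rested on 5 to 184 reads, Prdm14 on 25 to 749, Prdm1 on 49 to 1135 and Ifitm3 on 2592 to 24842, so the precision of a Cxcr4 value is limited by counting. 11 libraries of F1, 5 female and 6 male, held 21247642 reads or more and are called deep, and the highest of the others held 12211582. All 8 markers used for germ cells were above 0 in every embryo, and their summed level was 3898 ± 516 (SD, n = 17) in vehicle females and 4099 ± 701 (SD, n = 17) in vehicle males. Transcripts of Sertoli cells, the supporting cells of the testis, were also present in males. The 6 Sertoli markers summed to 21.7 ± 6.71 (SD, n = 17) in vehicle females and 668 ± 348 (SD, n = 17) in vehicle males, from 64.8 to 1189 between males.

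Between genes, levels can be compared only per kilobase of exon, here all GENCODE M21 exons of a gene merged. That length can differ from that of the transcripts present, so the scale is rough. In vehicle females the normalized count per kilobase of exon was highest for Ifitm3, at 754 ± 197 (SD, n = 17), ahead of Dppa4 at 187 ± 46.7 and Dppa2 at 39.8 ± 8.71. The specifiers and receptors were far lower on this scale, with Tfap2c at 5.50 ± 1.88, Kit at 5.25 ± 0.933, Prdm14 at 3.85 ± 1.21, Prdm1 at 2.14 ± 0.651 and Cxcr4 at 1.33 ± 0.459. In vehicle males the order per kilobase of exon was Ifitm3 at 738 ± 169 (SD, n = 17), Dppa4 at 264 ± 48.8, Dppa2 at 33.9 ± 5.42, Prdm14 at 4.88 ± 1.02, Kit at 3.69 ± 1.48, Tfap2c at 2.94 ± 1.19, Prdm1 at 2.89 ± 0.628 and Cxcr4 at 1.55 ± 0.588. In both sexes the intervals of mean ± SD of Ifitm3, Dppa4 and Dppa2 lay apart from each other and from the rest, while neighbours from Tfap2c down to Cxcr4 in females and from Prdm14 down to Prdm1 in males had overlapping intervals.

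Prdm1, the transcriptional repressor also called Blimp1, ran from 5.87 to 20.1 normalized counts in vehicle females with a median of 10.9, and from 10.9 to 22.8 in vehicle males with a median of 14.5. The ranges overlapped, but 16 of 17 males lay above the female median and 8 females lay below every male. The mean was 16.1 ± 3.5 (SD, n = 17) in males against 11.9 ± 3.63 (SD, n = 17) in females, which is a log2 fold change of 0.45 (SE 0.13), with an adjusted p of 0.00154 (limma, two-sided, Benjamini-Hochberg over 13288 genes). Fewer cells expressing a gene and less RNA per cell cannot be told apart in such bulk samples. Prdm14, which represses somatic genes and keeps pluripotency genes on, ran from 4.19 to 15.6 in vehicle females with a median of 9.62, and from 7.18 to 16.8 in vehicle males with a median of 12.7. 15 of 17 males lay above the female median, and the groups overlapped over most of their range. Its log2 fold change was 0.36 (SE 0.16) with a limma adjusted p of 0.0449, which became 0.0949 with edgeR's quasi-likelihood test, 0.0927 with its likelihood ratio test and 0.0657 without the 11 deep libraries, with a range of 0.0152 to 0.0949 over all settings.

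Tfap2c, the AP-2 gamma transcription factor that acts with Prdm1, went the other way. It ran from 13.0 to 35.8 in vehicle females with a median of 17.4, and from 6.20 to 22.0 in vehicle males with a median of 9.95. The highest values were all female, 6 of them above every male, and 13 of 17 males fell short of the lowest female. The mean was 10.8 ± 4.39 (SD, n = 17) in males and 20.3 ± 6.93 (SD, n = 17) in females, which is a log2 fold change of -0.90 (SE 0.20), with an adjusted p of 6.73e-05 (limma, Benjamini-Hochberg), and 15 of 17 males lay below the female median. Among all embryos, exposed ones included, 47 of 48 females were above the male median of Tfap2c.

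Of the receptors, Kit ran from 33.1 to 65.5 in vehicle females with a median of 45.9, and from 15.6 to 59.0 in vehicle males with a median of 31.9. 9 males lay below every female, though the highest male lay above all but 2 females. The mean was 32.9 ± 13.2 (SD, n = 17) in males against 46.8 ± 8.31 (SD, n = 17) in females, which is a log2 fold change of -0.59 (SE 0.15), with a limma adjusted p of 0.000345, and 15 of 17 males lay below the female median. Over all embryos, all 48 females lay above the male median of Kit, and 27 of 53 males lay below every female. Cxcr4 ran from 0.962 to 4.22 in vehicle females with a median of 2.45, and from 1.13 to 5.30 in vehicle males with a median of 2.66. The sexes overlapped almost fully for this receptor, and its log2 fold change of 0.17 (SE 0.16) had a limma adjusted p of 0.357.

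Dppa2 and Dppa4 encode paired nuclear proteins that keep developmental promoters poised in early embryonic cells. Dppa4 ran from 163 to 467 in vehicle females with a median of 299, and from 272 to 583 in vehicle males with a median of 440. 16 of 17 males lay above the female median, 5 males lay above every female and 5 females below every male. The mean was 438 ± 81.1 (SD, n = 17) in males and 311 ± 77.6 (SD, n = 17) in females, with a log2 fold change of 0.51 (SE 0.14) and a limma adjusted p of 0.00086. Dppa2 ran from 67.3 to 130 in vehicle females with a median of 91.4, and from 59.9 to 104 in vehicle males with a median of 85.2. 7 females lay above every male, yet its log2 fold change of -0.22 (SE 0.11) had a limma adjusted p of 0.0980, which became 0.0447 without the 11 deep libraries and reached 0.144 in other settings.

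Ifitm3, which encodes a small interferon-inducible membrane protein long used to mark early germ cells under the name Fragilis, ran from 279 to 758 in vehicle females with a median of 499, and from 238 to 685 in vehicle males with a median of 487. The sexes overlapped over nearly the whole range, with a log2 fold change of -0.02 (SE 0.13) and a limma adjusted p of 0.893. With upper quartile scaling that fold change was 0.00. Reads of Ifitm3 may be shared with near-identical sequence of its paralogs, which the counts cannot show. In all, 5 of the 8 members were called between the vehicle sexes, Prdm1, Prdm14 and Dppa4 higher in males and Tfap2c and Kit higher in females. Of the 13288 genes tested 56.5% were called, 3703 higher in males and 3799 higher in females, so a share like that of the members is found among genes at large. The Sertoli transcripts described above move with the same contrast, and their part in these differences was not tested. Across the 53 males the summed Sertoli markers had Pearson r between -0.39 and 0.10 with the members on the log2 scale, values that share a library and its scaling.

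**Figure D1:**
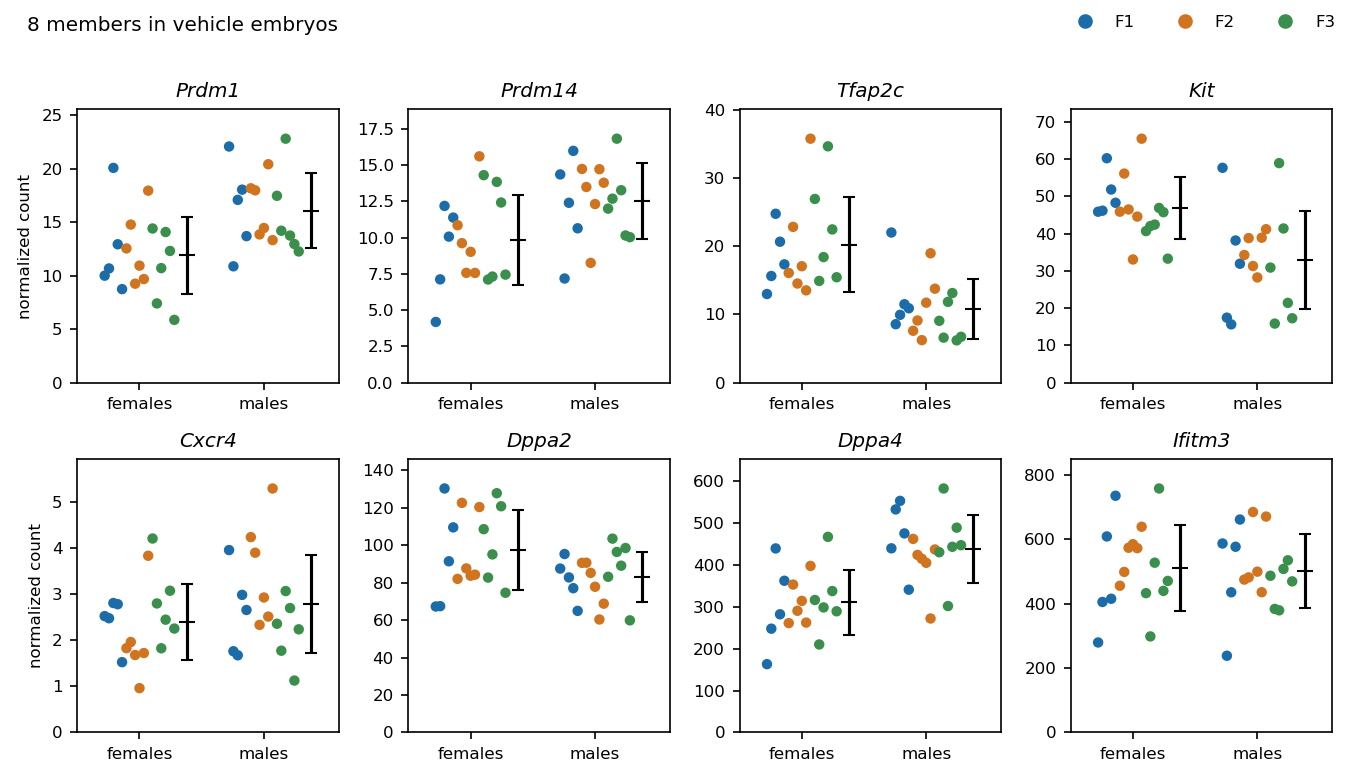
Normalized counts of the 8 members in 17 vehicle females and 17 vehicle males, each point an embryo coloured by generation, with the mean and SD as a bar to the right of each group; each vertical axis starts at 0. For Tfap2c 13 males sit below every female, and for Dppa4 5 males sit above every female.

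Within generations fewer members were called. In F1 Dppa4 and Kit were called, 2 of 8 beside 23.8% of 13635 genes. The F1 vehicle values of Dppa4 were 163, 248, 282, 362 and 439 in females and 341, 440, 475, 533 and 553 in males, and those of Kit were 45.9, 46.2, 48.3, 51.9 and 60.3 in females and 15.6, 17.5, 31.9, 38.2 and 57.7 in males. 4 males lay above every female for Dppa4 and 4 lay below every female for Kit, the exception for Kit being C3774.3. Dppa4 had a log2 fold change of 0.71 and a limma adjusted p of 0.0323, and Kit -0.80 and 0.0126. The Dppa4 call was lost without any of male C4232.2 (adjusted p 0.0703), female C4232.9 (0.150), male C4321.1 (0.0784), female C4321.6 (0.0756), male C4605.1 (0.0556) or female D1961.1 (0.0551), and without the 11 deep libraries (0.178). The deep libraries held 1 of the 5 vehicle females and 2 of the 5 vehicle males. With depth class as a term instead, Dppa4 stayed called (limma adjusted p 0.00438). The Kit call was lost without male C4232.2 (0.0607) or male C4321.1 (0.0703), and Tfap2c was called without male C3774.3 (0.0484). With the 2 compared groups fitted alone neither was called, Dppa4 having an adjusted p of 0.0602 and Kit of 0.0695. With the dam code as a block both stayed called, Dppa4 with a limma adjusted p of 0.00697 and Kit of 0.000557.

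In F2, 2 of 8 members were called, Cxcr4 and Tfap2c, beside 41.1% of 13083 genes. Cxcr4 ran from 0.962 to 3.84 in 6 vehicle females with a median of 1.78, and from 2.34 to 5.30 in 6 vehicle males with a median of 3.42. All 6 males lay above the female median and 3 lay above every female, with a log2 fold change of 0.72 and a limma adjusted p of 0.0193. Tfap2c had a log2 fold change of -0.81 and a limma adjusted p of 0.0285, with 4 of 6 males below every female. The Cxcr4 call was lost without female D2996.1 (0.0650) or male D3133.5 (0.0560), and the Tfap2c call without male C4988.2 (0.0660), female C4992.1 (0.0583), male C4992.2 (0.0529), male D2991.3 (0.0817) or female D3133.2 (0.0808). Kit, with a limma adjusted p of 0.0671, was called by edgeR's quasi-likelihood (0.0473) and likelihood ratio (0.0412) tests, with upper quartile scaling (0.0462) and with the compared groups alone (0.0465). Leaving out an embryo also brought calls. Dppa4 was called without male D3001.1 (0.0187) or female D3133.2 (0.0344), Kit without female D2996.1 (0.0270), Prdm14 without female D3133.2 (0.0450), and Prdm1 without female C4992.1 (0.0419), male D2991.3 (0.0460), female D3133.2 (0.0127) or male D3133.5 (0.0391). Prdm1 was also called with the dam code as a block (limma adjusted p 0.0488).

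In F3, 2 of 8 members were called, Tfap2c and Prdm1, beside 32.2% of 13139 genes. Tfap2c ran from 6.20 to 13.1 in 6 vehicle males and from 14.9 to 34.7 in 6 vehicle females, so that every male lay below every female. Its log2 fold change of -1.26 had a limma adjusted p of 0.00462, and the call held when any of the 12 vehicle embryos was left out. Prdm1 had a log2 fold change of 0.54 and a limma adjusted p of 0.0441, with 6 of 6 males above the female median. The Prdm1 call was lost without male D1344.2 (0.0846), male D1388.1 (0.0529), female D1388.3 (0.117), female D3402.1 (0.0588), male D3402.3 (0.105) or female D3651.2 (0.150), and with the compared groups alone (0.0917). It was also lost with edgeR's quasi-likelihood (0.150) and likelihood ratio (0.149) tests, but these were run without D1388.3, so the test and the embryos changed together. The same holds for every edgeR value over all generations. Dppa4 was called without male D3402.3 (0.0449) or female D3526.1 (0.0434), and Kit without male D3402.3 (0.00903) or male D3523.1 (0.0428). Kit was also called with the dam code as a block (limma adjusted p 0.0390). A test of the sex-by-generation interaction in vehicle embryos (limma, moderated F) called 0 of the 8 members and 0% of 13182 genes, with 158 genes at an unadjusted p below 0.05, and edgeR was not run for it. Cxcr4, whose log2 fold change between the sexes was 0.06 in F1, 0.72 in F2 and -0.28 in F3, had the smallest unadjusted p of the members, 0.0216, and an adjusted p of 1.0.

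Partners of the members were counted between the vehicle sexes from lists, each beside the 56.5% of all genes called and the median log2 fold change of all genes, 0.00. Of 20 specification partners tested 8 had higher male and 5 higher female levels, with a median log2 fold change of 0.12. Otx2, a homeobox gene that holds back germ cell fate in early cells, stood at 0.0258 ± 0.0832 (SD, n = 17) in females and 7.46 ± 2.16 (SD, n = 17) in males. The AKT co-activator Tcl1 had a log2 fold change of 1.03 and Smad1, which carries the BMP signal to the nucleus, 0.92. Higher in females were the BMP-family receptors Acvr1 and Bmpr1a, with log2 fold changes of -1.02 and -0.76, and the let-7 regulator Lin28a at -0.64. Of 6 tested PRDM family genes Prdm4 was higher in males (0.65) and Prdm9, which marks recombination sites in meiosis, higher in females (-1.82), and the 1 tested AP-2 relative was not called.

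Of 25 genes tested around Kit signalling 10 had higher male and 6 higher female levels, with a median log2 fold change of 0.24. Kitl, the ligand of Kit, which is made by supporting cells of the gonad, was at 0.984 ± 0.921 (SD, n = 17) in females and 7.59 ± 7.67 (SD, n = 17) in males. It was higher together with the Sertoli list, of which 6 of 6 genes were higher in males, and the part of Sertoli transcripts in its difference was not tested. The most abundant Sertoli marker, Cst9, was at 0.0865 ± 0.127 in females and 410 ± 226 in males, and Ptgds at 0.392 ± 0.364 and 122 ± 78.2. Sox9 was at 0 in 36 of 48 females, so its log2 fold change depends on the pseudocount and ran from 2.39 to 6.76 over the settings. The kinase subunit Pik3cd (1.74) and Akt2 (0.79) were higher in males, and the adaptor Gab2 (-1.66), the kinase Lyn (-1.78) and Mtor (-0.51) higher in females. Over the settings the log2 fold change ran from -2.10 to -1.36 for Gab2 and from -2.70 to -1.34 for Lyn. Of 20 genes tested around Cxcr4 signalling and adhesion 5 had higher male and 6 higher female levels, with a median of 0.04. Cdh1 (1.11), the receptor kinase Grk6 (1.16) and the integrin Itga6 (0.68) were higher in males, and Jak2 (-1.31), Cd9 (-0.84) and Itgb1 (-0.58) higher in females.

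Of 9 tested relatives and chromatin partners of Dppa2 and Dppa4, 4 had higher male and 1 higher female levels, with a median log2 fold change of 0.33. Dppa5a, an RNA-binding protein of early germ cells, was at 1804 ± 481 (SD, n = 17) in females and 4128 ± 1427 (SD, n = 17) in males, and Dppa3, also called Stella, had a log2 fold change of 0.57. Cxxc1, which reads unmethylated CpG, was also higher in males (0.82), and the Polycomb enzyme Ezh2 was higher in females (-0.23), a call lost with both edgeR tests and with the vehicle groups fitted alone. Of 5 tested Ifitm paralogs Ifitm7 was higher in males (0.42) and Ifitm5 (-0.70) and Ifitm6 (-0.48) higher in females, all with means below 3 normalized counts in both sexes. Their log2 fold changes ran from 0.31 to 0.71, from -0.94 to -0.58 and from -0.87 to -0.32 over the settings. Of 15 interferon response genes 7 had higher male and 4 higher female levels, with a median of 0.07. The receptor chain Ifngr2 (1.65), Ifi35 (1.27) and Irf1 (1.01) were higher in males, and the class I genes H2-K1 (-2.23) and H2-D1 (-2.25) and the other receptor chain Ifngr1 (-1.32) higher in females.

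Marker lists of other cells were counted in the same contrast. None of 9 macrophage, 4 erythroid or 2 mast cell genes tested was called by limma. Of 5 endothelial genes 1 was higher in males and 2 higher in females, of 3 pregranulosa genes 1 higher in females, of 2 stromal genes 1 higher in females, of 3 fetal Leydig genes 1 higher in each sex, and the 1 mesonephric gene tested was higher in females. Of these calls in females, Insl3 of the Leydig list was kept in 7 of 11 settings (adjusted p up to 0.461) and the mesonephric Pax8 in 7 of 11 (up to 0.108), while the endothelial Plvap lost its call with both edgeR tests (up to 0.0704). Of 8 germ cell markers 2 were higher in males, among them Pou5f1 with a log2 fold change of 0.80, whose regulatory sequence drives the EGFP of the sort, and 3 higher in females. Mast cells and macrophages can express Kit and Cxcr4. The most abundant mast cell marker, Cpa3, was at 0 in 74 embryos, and the summed macrophage markers were 25.0 ± 12.5 (SD, n = 17) in vehicle females and 20.3 ± 12.0 (SD, n = 17) in vehicle males, with C1qb the most abundant. The summed endothelial markers, mostly Pecam1, which germ cells also express, had Pearson r of 0.74 with Tfap2c over 48 females and 0.79 over 53 males. For Prdm1, Prdm14, Kit and Cxcr4 the r was 0.38, 0.71, 0.33 and 0.42 in females and -0.05, 0.48, 0.56 and 0.56 in males. For Dppa2, Dppa4 and Ifitm3 it was 0.63, 0.67 and 0.29 in females and -0.18, -0.12 and 0.05 in males.

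Exposure was tested in each sex and generation against vehicle, 18 contrasts in all. In none of the 18 was a member called by limma, and 12 of the 144 member tests had an unadjusted p below 0.05, 8.33% beside 5.10% of all gene tests. Over these contrasts 20 genes were called, 0.00733% of those tested in F1 females at 2 mg/kg-day, 0.145% in F2 males at 0.2 mg/kg-day and 0% in each of the others, while edgeR called 11 by the quasi-likelihood and 192 by the likelihood ratio test and no member. With generations pooled, 0 of 8 members were called at each of the 3 doses in each sex, with 2 of 48 member tests at an unadjusted p below 0.05, 4.17% beside 6.40% of all gene tests. Both fell in females at 2 mg/kg-day, where 23.3% of genes had such a p. The background was 1.36% of 13288 genes in females at 2 mg/kg-day and 0% at the other doses, with 48 genes called over the 6 contrasts by the quasi-likelihood and 177 by the likelihood ratio test. With all doses together 0 of 8 members and 0% of genes were called in either sex, with 0 of 16 member tests at an unadjusted p below 0.05, beside 4.90% of all gene tests, and 5 genes by each edgeR test.

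In females at 2 mg/kg-day over all generations Ifitm3 ran from 399 to 1226 with a median of 652, beside 279 to 758 with a median of 499 in vehicle females. 10 of the 12 exposed females lay above the vehicle median and 3 lay above every vehicle female. The mean was 695 ± 235 (SD, n = 12) against 511 ± 134 (SD, n = 17), a log2 fold change of 0.42 (SE 0.14) with an unadjusted p of 0.00281 and a limma adjusted p of 0.0658, short of the threshold of 0.05, with a range of 0.0507 to 0.107 over all settings. An unadjusted p below 0.05 was found for 3098 of 13288 genes in this contrast, 23.3%, and for 2 of 8 members, Ifitm3 and Cxcr4. In males the values were 500.2 ± 94.4 (SD, n = 14) at this dose and 500.4 ± 115 (SD, n = 17) with vehicle. By generation, the F1 values were 554, 599, 604, 807 and 1226 beside 279, 405, 415, 609 and 735 in vehicle, the F2 values 399, 478 and 701 beside 456 to 639 with a median of 573, and the F3 values 538, 700, 703 and 1037 beside 298 to 758 with a median of 455. The F1 and F3 females at this dose lay above their vehicle medians in 5 of 5 and 4 of 4, and in F2 only 1 of 3 did. F3 had a log2 fold change of 0.62 with a limma adjusted p of 0.243, and F1 of 0.65 with 0.474. Of 5 Ifitm paralogs tested in F3, 3 had an unadjusted p below 0.05 (limma), beside 15.4% of all genes, with a median log2 fold change of 0.50. In F1 1 of 5 did, beside 9.89%, with a median of 0.36. In F2 0 of 5 did, beside 4.61%, with a median of -0.12. The part of reads shared with these paralogs was not tested.

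Cxcr4 ran from 1.92 to 5.58 in females at 2 mg/kg-day with a median of 3.32, beside 0.962 to 4.22 in vehicle females with a median of 2.45. 10 of 12 exposed females lay above the vehicle median and 2 above every vehicle female. The mean was 3.39 ± 1.04 (SD, n = 12) against 2.40 ± 0.83 (SD, n = 17), a log2 fold change of 0.43 (SE 0.17) with an unadjusted p of 0.0142 and a limma adjusted p of 0.113, with a range of 0.0786 to 0.307 over all settings, in a contrast where 23.3% of all genes had an unadjusted p below 0.05. In F1 the values were 2.86, 3.09, 3.64, 4.14 and 5.58 beside 1.53, 2.48, 2.53, 2.79 and 2.81 in vehicle, so all 5 exposed females lay above every vehicle female, with a log2 fold change of 0.56 and a limma adjusted p of 0.505. The summed stromal markers separated in the same way, at 2.99, 3.03, 4.52, 7.71 and 13.8 beside 1.40 to 2.74 in F1 vehicle females. The 1 stromal gene tested in F1 had an unadjusted p below 0.05, as had 9.89% of all genes, and the part of stromal cells was not tested. Over all generations the other cell types were measured in the same way. The summed endothelial markers were 49.4 ± 11.2 (SD, n = 12) beside 53.8 ± 12.7 (SD, n = 17), and the summed macrophage markers 26.3 ± 16.5 beside 25.0 ± 12.5. Higher means with wide spreads were found for the summed mast cell markers, 6.40 ± 15.7 beside 2.27 ± 9.26, stromal markers, 4.23 ± 3.44 beside 2.61 ± 2.34, Sertoli markers, 38.2 ± 30.2 beside 21.7 ± 6.71, and erythroid markers, 294 ± 599.9 beside 14.5 ± 53.8. Their medians were 0 beside 0, 3.01 beside 1.80, 22.0 beside 19.7 and 3.04 beside 1.40 in the same order. The highest vehicle sums of mast cell and erythroid markers, 38.2 and 223, were both those of D2991.1. At an unadjusted p below 0.05 were 2 of 4 erythroid, 2 of 5 endothelial and 1 of 3 pregranulosa genes, and none of 9 macrophage, 2 mast cell, 2 stromal or 6 Sertoli genes, none of all these being called by limma, beside the 23.3% of all genes at such a p. Their part in the Ifitm3 and Cxcr4 values was not tested.

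Among the genes of the partner lists, 4 passed limma's threshold in females at 2 mg/kg-day over all generations, where 1.36% of all genes did, and none did in any other exposure contrast. They were 2 of 9 Dppa relatives and chromatin partners, 1 of 20 Cxcr4 signalling genes and 1 of 15 interferon response genes, with 0 of 25 Kit signalling genes, 0 of 20 specification partners, 0 of 6 PRDM, 0 of 5 Ifitm and 0 of 1 AP-2 genes. Dppa3 ran from 1484 to 3201 with a median of 2397 in the 12 exposed females and from 960.1 to 2037 with a median of 1689 in the 17 vehicle females, and 10 of 12 lay above the vehicle median. Dppa5a ran from 1560 to 5423 with a median of 2883 beside 974 to 2588 with a median of 1800, and 11 of 12 lay above the vehicle median. The groups overlapped for both. Dppa3 rose by a log2 fold change of 0.51 (adjusted p 0.0481) and Dppa5a by 0.69 (adjusted p 0.0476). Stat3, listed with Cxcr4 signalling, had a log2 fold change of -0.72 (adjusted p 0.0481) with 11 of 12 below the vehicle median, and H2-D1, of the interferon list, -1.36 (adjusted p 0.0481) with 10 of 12 below it. None of the 4 was called with a pseudocount of 0.1, with no filter on low values, with upper quartile scaling, with edgeR's quasi-likelihood test, with generation as a term or without the 11 deep libraries. Over all settings the adjusted p ran from 0.0379 to 0.106 for Dppa3, from 0.0278 to 0.106 for Dppa5a, from 0.0378 to 0.106 for Stat3 and from 0.0392 to 0.169 for H2-D1. Dppa2 and Dppa4 themselves were at 109.7 ± 20.1 (SD, n = 12) and 325 ± 95.8 (SD, n = 12) in these females, beside 97.4 ± 21.3 (SD, n = 17) and 311 ± 77.6 (SD, n = 17) in vehicle.

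In males at 0.2 mg/kg-day in F3 neither Tfap2c nor Kit was called, but both had an unadjusted p below 0.05, as had 10.6% of all genes. The 4 Tfap2c values were 8.83, 22.4, 23.1 and 23.2, beside 6.20 to 13.1 with a median of 7.90 in 6 vehicle males, and the 4 Kit values were 41.5, 52.7, 53.9 and 56.8, beside 15.9 to 59.0 with a median of 26.2. 3 of 4 males lay above every vehicle male for Tfap2c, 2 of them, D1390.1 and D1390.5, sharing a dam code, and D1464.2 had the lowest value of both genes. All 4 Kit values lay within the vehicle range. The log2 fold change was 1.04 for Tfap2c with a limma adjusted p of 0.286, and 0.87 for Kit with 0.230. The summed endothelial markers were 58.2, 67.4 and 71.4 in the 3 males above every vehicle male for Tfap2c and 38.2 in D1464.2, beside 23.4 to 62.2 in vehicle males, with 2 of 5 genes at an unadjusted p below 0.05. The summed Sertoli markers were 377 in D1464.2 and 61.9, 102 and 405 in the others, beside 64.8 to 1189 in vehicle males, with 5 of 6 genes at an unadjusted p below 0.05 and a median log2 fold change of -1.06. Of the pregranulosa genes 1 of 4 was at such a p. The part of these lists was not tested. In F2 males at 0.2 mg/kg-day Kit was at 15.4, 24.5 and 33.1 beside 28.3 to 41.2 with a median of 36.6 in 6 vehicle males, below the vehicle median in 3 of 3, with a log2 fold change of -0.59 and a limma adjusted p of 0.352. Dppa4 in the same 3 males was at 440, 489 and 805 beside 272 to 462 with a median of 419, above the vehicle median in 3 of 3, with a log2 fold change of 0.49 and an adjusted p of 0.386. In this contrast 9.58% of all genes had an unadjusted p below 0.05. Among other-cell markers these were 6 of 6 Sertoli genes (median log2 fold change -1.79), 6 of 9 macrophage genes (-1.47), 2 of 3 fetal Leydig genes (-1.41), 1 of 2 mast cell genes (-1.35) and 1 of 3 pregranulosa genes (0.26). The summed Sertoli markers were 37.8, 431 and 459.5, beside a lowest value of 439.8 in vehicle males, and the part of these markers was not tested.

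At 0.033 mg/kg-day Prdm1 in F2 females was at 15.8, 19.3 and 21.4 beside 9.26 to 18 with a median of 11.8 in 6 vehicle females, above the vehicle median in 3 of 3, with a log2 fold change of 0.60 and a limma adjusted p of 1.0. Dppa2 in the same females was at 94.1, 145 and 153 beside 82.0 to 123 with a median of 86.0, with a log2 fold change of 0.42 and an adjusted p of 1.0. In this contrast 2 of 4 erythroid genes had an unadjusted p below 0.05, with a median log2 fold change of 4.25, as had 1 of 3 pregranulosa genes and the 1 mesonephric gene, beside 3.39% of all genes, and their part was not tested. Cxcr4 in F2 males at this dose was at 1.35, 1.51 and 2.55 beside 2.34 to 5.30 with a median of 3.42, below the vehicle median in 3 of 3, with a log2 fold change of -0.80 and an adjusted p of 1.0. Macrophage and mast cell genes lay lower in the same contrast, 6 of 9 (median log2 fold change -1.07) and 1 of 2 (-1.30) at an unadjusted p below 0.05, as was 1 of 5 endothelial genes, beside 1.57% of all genes, and their part was not tested. Kit in the 2 F1 males at this dose was at 14.1 and 20.4, and Prdm1 in the 2 F3 females at 0.2 mg/kg-day at 18.2 and 19.8. Their log2 fold changes were -0.74 and 0.85 with limma adjusted p of 0.769 and 0.337, and both females lay above all 6 vehicle females, which ran from 5.87 to 14.4. In these 2 females the summed endothelial markers were 70.4 and 108, beside 42.0 to 75.7 in F3 vehicle females. Of endothelial genes, whose median log2 fold change was 0.46, 1 of 5 had an unadjusted p below 0.05, as had 12.8% of all genes, and their part was not tested. For Kit in the 2 F1 males, 20.4 lay within the range of the F1 vehicle males given above, and 14.1 lay below it. In these 2 males the summed Sertoli markers were 1085 and 2135, beside 71.8 to 958 in F1 vehicle males. Of the Sertoli genes 3 of 6 had an unadjusted p below 0.05, with a median log2 fold change of 1.42. At such a p were also 1 of 9 macrophage and 1 of 3 fetal Leydig genes, beside 6.34% of all genes, and the part of these markers was not tested.

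**Figure D2:**
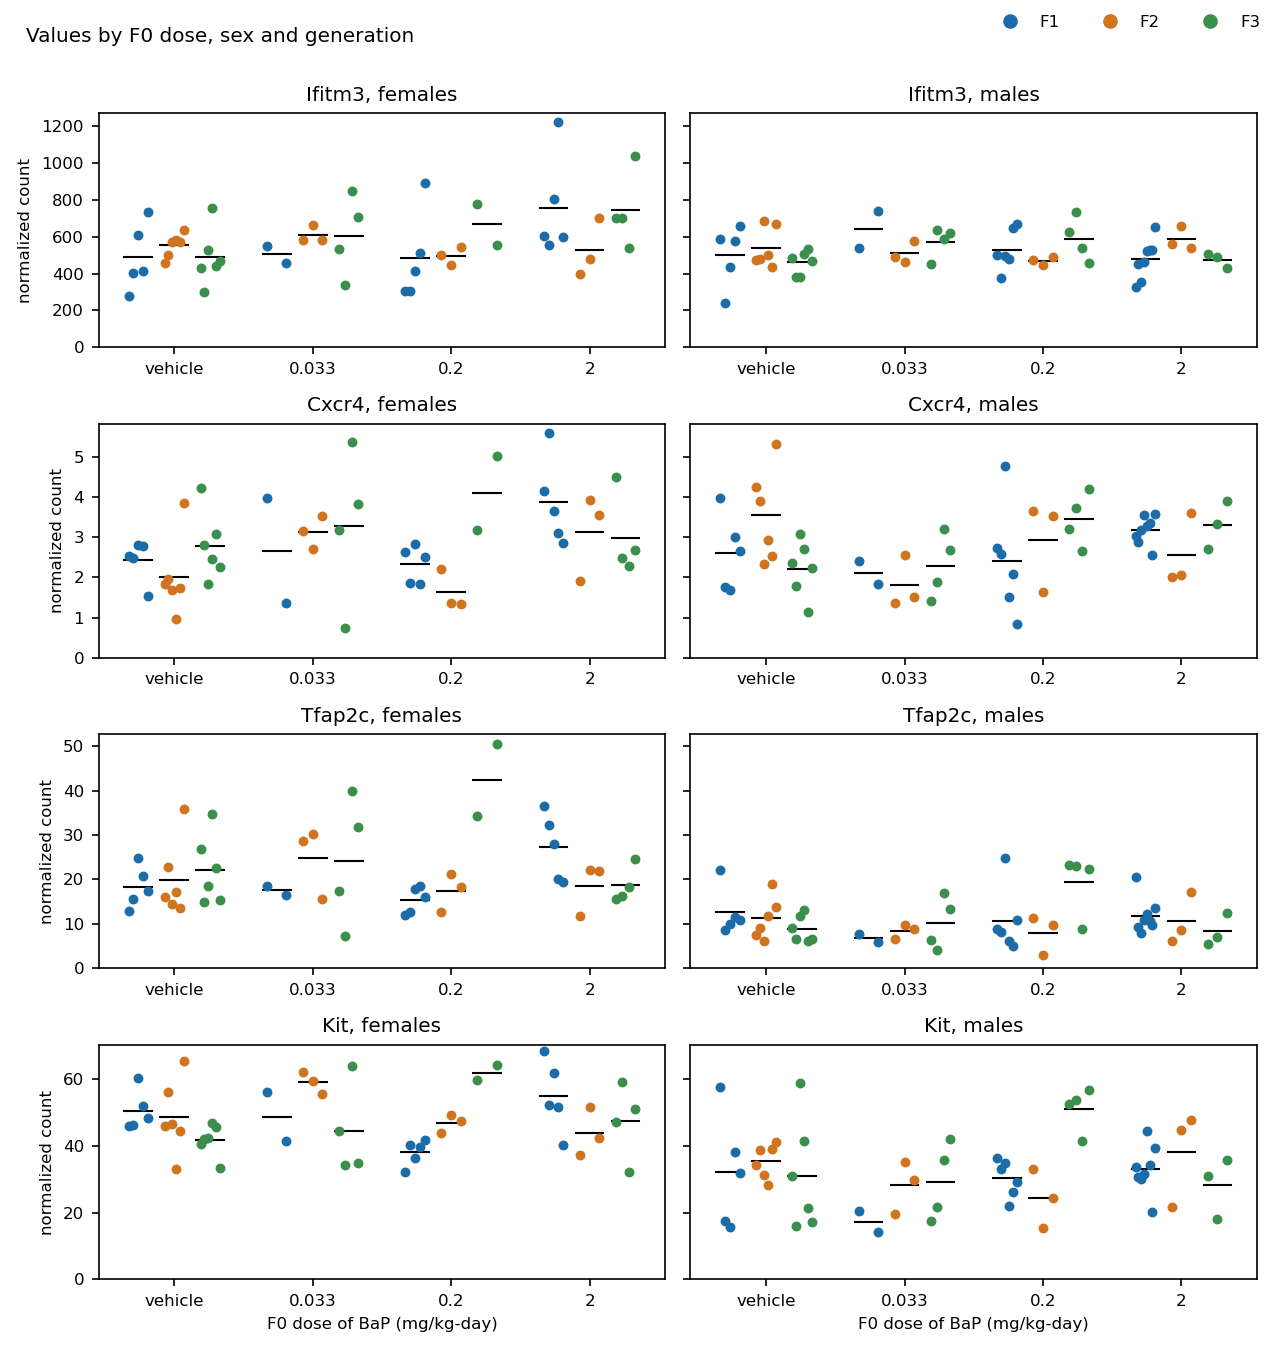
Normalized counts of Ifitm3, Cxcr4, Tfap2c and Kit against the F0 dose of BaP in mg/kg-day, each point an embryo coloured by generation and each short line the mean of a group; vertical axes start at 0 and are shared between the sexes of a gene. In F3 males at 0.2 mg/kg-day 3 of 4 embryos sit above every vehicle male for Tfap2c, and the Ifitm3 values of females at 2 mg/kg-day reach 1226.

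Whether a dose acted differently in the sexes was tested by 9 interaction contrasts, in which 0 of 8 members and 0% of genes were called by limma. 4 of 72 member tests had an unadjusted p below 0.05, 5.56% beside 3.07% of all gene tests, and edgeR called 0 genes by the quasi-likelihood and 8 by the likelihood ratio test. The smallest unadjusted p was that of Cxcr4 in F2 at 0.033 mg/kg-day, 0.00258 with a log2 difference of -1.41 and an adjusted p of 0.999. Between vehicle embryos of different generations 0 of 8 members and 0% of genes were called in 6 contrasts by limma, with 1 of 48 member tests at an unadjusted p below 0.05, 2.08% beside 3.18% of all gene tests, and 0 genes by the quasi-likelihood and 10 by the likelihood ratio test. That test was Cxcr4 in males, at 2.21 ± 0.689 (SD, n = 6) in F3 beside 3.54 ± 1.15 (SD, n = 6) in F2, where 6 of 6 F3 males lay below the F2 median, with a limma adjusted p of 1.0.

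Within F1 the depth of a library went with some members. Ifitm3 was at 409 ± 156 (SD, n = 5) in the deep female libraries beside 636 ± 245 (SD, n = 12) in the others, and at 409 ± 128 (SD, n = 6) beside 554 ± 102 (SD, n = 15) in males. Dppa4 was at 198 ± 74.6 (SD, n = 5) beside 309 ± 73.4 (SD, n = 12) in females. Deep libraries were 1 of 5 vehicle females and 2 of 5 females at 2 mg/kg-day in F1, and the log2 fold change of Ifitm3 between these groups ran from 0.64 to 0.78 over all settings, that without deep libraries included. The log2 fold change of Cxcr4 between the same groups ran from 0.37 to 0.71.

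Pairs of members were compared across the embryos of each sex. Over the 48 females all 28 pairs of members had a positive Pearson r on the log2 scale, from 0.300 to 0.882 with a median of 0.629. Over the 53 males 18 pairs were positive and 10 negative, from -0.466 to 0.721 with a median of 0.0901. Over all pairs of tested genes 50.2% were positive in females, with a median r of 0.0017, and 50.3% in males, with 0.0021. In females all 28 pairs were positive within each of F1, F2 and F3, and in males 17, 14 and 18 were. Those counts include exposed embryos. In the 17 vehicle females Cxcr4 and Ifitm3 had an r of -0.315 and Cxcr4 and Dppa4 of 0.0776. These are descriptions over embryos that share libraries, scaling and in part a dam and a dose, and the difference between the sexes was not tested.

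Prdm14 and Tfap2c were among the closest pairs in females, with Pearson r of 0.882 and Spearman rho of 0.844 over 48 females, and 0.588 and 0.598 over 53 males. Tfap2c and Kit had Pearson r of 0.631 over females and 0.721 over males, and 0.576 and 0.717 without the 2 embryos farthest from the median of Tfap2c. Dppa2 and Dppa4 had Pearson r of 0.849 over females and 0.612 over males. The specifier Tfap2c and Dppa2 had r of 0.868 over females and -0.325 over males, negative in males of F1 (-0.363), F2 (-0.784) and F3 (-0.031). Kit and Dppa4 had r of 0.511 over females and -0.466 over males, where it was -0.481 without the 6 deep libraries.

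**Figure D3:**
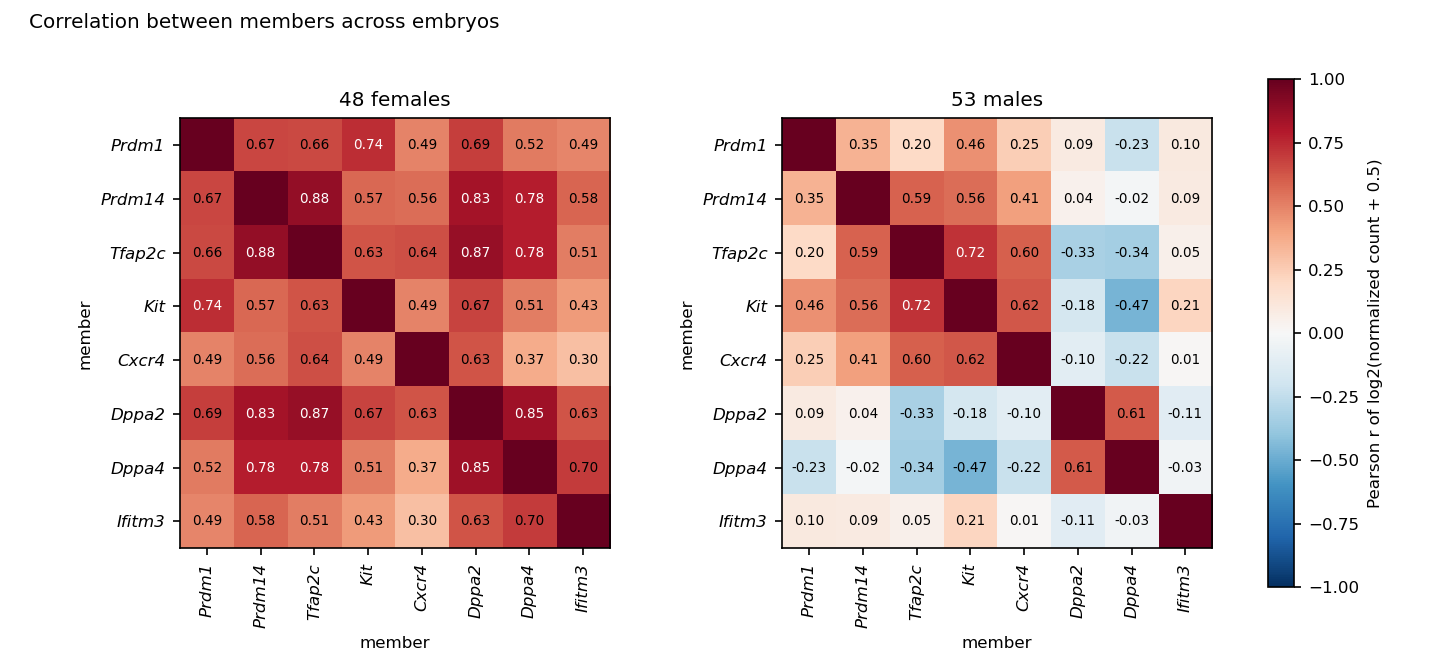
Pearson r between members across 48 females and across 53 males, computed on log2(normalized count + 0.5), with the value written in each cell. All 28 pairs are positive in females, and 10 are negative in males, each of them involving Dppa2 or Dppa4.

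The 3 genes most like each member were ranked by the lower of r in 48 females and r in 53 males among 8479 other genes, 8480 for Cxcr4. For Prdm1 they were Nup155 (0.671 in females, 0.655 in males), Rod1 (0.707, 0.644) and Rad21 (0.76, 0.643), and for Prdm14 they were Map2k1 (0.754, 0.765), Usp46 (0.753, 0.731) and Ss18 (0.798, 0.715). For Tfap2c they were Tes (0.858, 0.818), Pfkp (0.830, 0.818) and Txnrd1 (0.876, 0.815), and for Kit they included Sgol2 (0.758, 0.802) and Tmem2 (0.747, 0.744). Cxcr4 was most like another member, Tfap2c (0.644, 0.599), ahead of Fblim1 (0.591, 0.639) and Ccna2 (0.590, 0.596). Dppa2 was most like Fbxo15 (0.854, 0.711), Acadm (0.761, 0.696) and Tmem97 (0.726, 0.690), and Dppa4 most like Acadm (0.816, 0.763), Pak1ip1 (0.798, 0.731) and Apex1 (0.791, 0.699), so that Acadm stood near both Dppa genes. Ifitm3 was most like the galectin Lgals1 (0.909, 0.881) and the ribosomal protein genes Rps9 (0.922, 0.852) and Rplp2 (0.849, 0.839).

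On GRCm38, by GENCODE M21, Prdm1 lies on chromosome 10 from 44437177 to 44528501 on the minus strand, Prdm14 on chromosome 1 from 13113457 to 13127163 on the minus strand and Tfap2c on chromosome 2 from 172549593 to 172558622 on the plus strand. Kit lies on chromosome 5 from 75574916 to 75656722 on the plus strand and Cxcr4 on chromosome 1 from 128588199 to 128592293 on the minus strand. Dppa4 lies on chromosome 16 from 48283733 to 48294237 and Dppa2 follows it on the same plus strand from 48303908 to 48319723, with 9670 bases between them. Ifitm3 lies on chromosome 7 from 141009586 to 141010770 on the minus strand and has the shortest exons, 678 bases, beside 8911 for Kit. No other gene of the annotation overlaps a member.

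RefSeq promoters on GRCm38.p6 were at hand for 4 of the 8 members, Prdm1, Kit, Cxcr4 and Ifitm3, and not for Prdm14, Tfap2c, Dppa2 and Dppa4. Tfap2c is an AP-2 factor, and both Kit and Cxcr4 varied with it in both sexes. The 250 bases before each start were therefore searched on both strands for the AP-2 motif GCCNNNGGC. Of 32851 promoters of that length 13.7% hold it. Kit held 1 match in a window with 70.8% GC, and Prdm1, Cxcr4 and Ifitm3 held 0. The median GC of all promoters was 52.4%, and the share with a match among promoters as rich in GC as that of Kit was not computed. The RefSeq starts are not those of the GENCODE spans above. The window of Prdm1, from 44458749 to 44458998, lies inside its GENCODE span, and the windows of Kit and Ifitm3 overlap the GENCODE start. The window of Kit, chr5:75574737-75574986 on the plus strand, is shown with the match in capitals, which is a description of letters and not of a bound site.
Kit: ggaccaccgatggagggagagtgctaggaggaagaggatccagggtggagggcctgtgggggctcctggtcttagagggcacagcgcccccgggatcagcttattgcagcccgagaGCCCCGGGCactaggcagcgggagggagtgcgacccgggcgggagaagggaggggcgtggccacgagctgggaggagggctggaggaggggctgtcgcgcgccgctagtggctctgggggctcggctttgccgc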

How the data were processed

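The deposited signal values are RNA counts per gene normalized by the authors, for 48 females and 53 males. Per the labels and the study's methods the authors made cDNA from sorted cells with an oligo-dT kit, trimmed reads with Trim Galore, aligned with STAR to mm10, counted exons with Rsubread and normalized by TMM in edgeR. Whether counting was stranded is not stated. Each library's step between values was found, and 100% of 1423762 nonzero values of 99 libraries lay within 0.05 of a whole read. The tests used limma 3.58.1 in R 4.3.3 with a trend, on log2(value + 0.5), for genes with a mean of at least 0.5, at an adjusted p of 0.05. Counts were tested with edgeR 4.0.16 without F3 male 2 mg/kg-day D4190.1 and F3 female vehicle D1388.3, whose reads could not be recovered. Between vehicle sexes its quasi-likelihood test called 7388 genes and its likelihood ratio test 7469. Python 3.11.15, pandas 2.3.3, numpy 2.4.6, scipy 1.17.1 and matplotlib 3.10.9 made the other values. Embryo codes sharing the number before the point were taken as littermates. All members were named whatever their values, with up to 3 genes a direction from each partner or marker list by smallest p between vehicle sexes, the most abundant marker and the 3 most alike genes. The lists are those of specification partners, PRDM, AP-2 and Ifitm families, Kit and Cxcr4 signalling, Dppa relatives with chromatin partners, interferon response and 10 cell types. Members and lists were chosen with earlier results of these data known. Alternatives were pseudocounts of 0.1 and 1, no filter, a mean of at least 5, upper quartile scaling, edgeR, compared groups alone, generation or depth as a term, littermates averaged, dam as block, no deep libraries and leaving out embryos.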

Additional observations from a re-analysis of the deposited data

Results flagged for a closer look

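In 14 groups of 4 to 10 embryos, 7 of 112 values of a member at the end of its group stood far from the rest, and chance does so in about 1 in 20 groups. Prdm1 in F3 females at 2 mg/kg-day was at 10.1 in D4190.2, beside 14.4 to 15 in the other embryos. Prdm14 in F1 females at 2 mg/kg-day was at 16.3 in C4219.4, a deep library, beside 8.67 to 10.3. Prdm14 in F2 vehicle males was at 8.26 in D2991.3, beside 12.3 to 14.7, and in F3 males at 0.033 mg/kg-day at 4.87 in D2549.3, beside 11.3 to 13.2. Tfap2c in F3 males at 0.2 mg/kg-day was at 8.83 in D1464.2, beside 22.4 to 23.2. Cxcr4 in F1 vehicle females was at 1.53 in D2580.1, beside 2.48 to 2.81. Dppa4 in F2 vehicle males was at 272 in D3001.1, beside 405 to 462.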

How the results depend on the processing

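Counts of members called kept within 1.5 times their value in 99 of 105 alternatives. The exceptions were all between vehicle sexes within a generation, and their alternatives were chosen after seeing the data. In F1 the count of 2 became 0 with the compared groups alone and 1 without the deep libraries, in F2 the count of 2 became 1 at a mean of at least 5, where Cxcr4 was not tested, and in F3 the count of 2 became 1 with either edgeR test and with the compared groups alone. The edgeR tests of F3 also left out female D1388.3, without which limma loses the same call (0.117), so the change cannot be put down to the test. Beyond fewer genes or embryos, the cause was not tested. Leaving out each vehicle embryo in turn gave 0 to 3 members in F1, 1 to 4 in F2 and 1 to 3 in F3. Counts of 0 for exposure, interactions and generations stayed 0 in every alternative run. Over all generations the count between sexes was 4 or 5. For the 35 member results that were called or had an unadjusted p below 0.05, 354 of 369 alternatives kept the side of the threshold, 9 lost it and 6 gained it, with no change of direction of a called value, and leaving out embryos kept it in 326 of 358 cases for 27 of them. Outside these results, limma calls between vehicle sexes were gained by Dppa2 over all generations without the deep libraries (0.0447), Tfap2c in F1 without male C3774.3 (0.0484) and Prdm14 in F2 without female D3133.2 (0.0450). The 4 list genes called at 2 mg/kg-day lost their call in 27 of 46 alternatives. With the dam code as a block the sex-by-generation p of Cxcr4 was 0.00908, the adjusted p 1.0, Prdm1 in F2 was called between sexes (adjusted p 0.0488) and Kit in F3 (0.0390). The residuals of 15 vehicle pairs of a male and a female with the same dam code correlated from -0.596 to 0.864, 11 of them above 0.1. Upper quartile scaling moved the median of all genes by over 0.1 in 4 of 45 contrasts, by 0.117 in F1 females at 2 mg/kg-day, -0.157 and -0.114 in the F1 interactions at 0.2 and 2 mg/kg-day, and -0.127 between F3 and F1 vehicle males. Groups of 2 or 3 embryos and the 5 to 184 reads behind Cxcr4 limit what could be detected.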
